A study of Mus musculus with 6 samples.

Results

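The HOX genes were followed in HCT116, an established line of human colorectal cancer cells, comparing parental with oxaliplatin-resistant cells. All rows whose symbol was HOXA, HOXB, HOXC or HOXD followed by a paralog number were taken, which gave 38 genes of 31456 rows: 11 HOXA, 10 HOXB, 9 HOXC and 8 HOXD genes. HOXD1 was not analysed here. Bulk RNA sequencing had been done on 3 libraries of each form, numbered 1 to 3. Oxaliplatin, a platinum drug that forms DNA adducts, names the resistance, but the labels give neither the way the resistant cells were derived, nor whether they are 1 clone, nor whether drug was present at harvest. They also do not say whether the libraries of a form came from separate cultures, so each p-value reflects only how these libraries vary. The labels give the organism as mouse, whereas the tables carry human identifiers, and human symbols are used as deposited.

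HOX genes encode homeodomain transcription factors that set position along the body axis. They lie in clusters, each on its own chromosome, and low paralog numbers stand at the 3′ end of a cluster and are active earlier and further forward in the embryo than high numbers. Many stay on in adult epithelium, the gut included, and Polycomb complexes hold the rest silent while trithorax complexes keep active ones on. HOX proteins bind DNA together with TALE homeodomain cofactors of the PBX and MEIS families, and retinoic acid is a classical inducer of the 3′ genes.

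The libraries held 20246878 to 32138423 counts, and 3 counts in a library correspond to 0.0975 to 0.153 CPM (counts scaled to library size, here with TMM normalization factors). Sampling noise alone gives a chi-square near 1 per gene between replicates. Only genes with at least 20 counts in a pair were used. Over all such genes, scaled by library totals, parental replicate 2 gave 11.3 and 11 against its own group. The other pairs gave 2.01 to 4.51. Over the HOX genes, scaled with TMM factors, the chi-square was 1.08 to 2.48. Because the scaling differs, the HOX values cannot be set directly against those of all genes. AKR1C1, the gene in the study's title, had 1.95 ± 0.687 CPM in parental and 4.76 ± 0.414 CPM in resistant libraries (SD, n = 3). Of the epithelial markers EPCAM, KRT8, KRT18, KRT19 and CDH1 were present in every library, whereas VIL1 and CDX1 had 10 and 1 counts over all 6. Fibroblast markers summed to 22.5 to 26.1 CPM in parental and 39.3 to 44.9 CPM in resistant libraries, nearly all of it COL1A1, with COL1A2, DCN and LUM at 0 to 2 counts per form. The low markers PDGFRB and COL3A1 had 13 and 2 counts in parental and 45 and 25 in resistant cells, and PDGFRB was called higher (edgeR adjusted p = 0.0026). PDGFRB passed the low count filter of the test through its resistant libraries, so only a rise could be called. Leukocyte markers summed to 0.102 to 0.482 CPM. The part of COL1A1 and of these markers in the HOX values was not tested.

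HCT116 cells transcribed mainly the HOXA and HOXB clusters. The summed level of the HOXA genes was 161, 147 and 163 CPM in parental replicates 1 to 3 and 236, 230 and 242 CPM in resistant replicates 1 to 3. The HOXB genes together had 130, 130 and 132 CPM against 167, 162 and 170 CPM. In the HOXC cluster the sum was 21.6, 19.8 and 22.0 CPM in parental and 18.9, 19.4 and 18.8 CPM in resistant libraries. The HOXD cluster was the weakest, with 4.28, 2.93 and 3.61 CPM against 11.9, 11.5 and 11.6 CPM. The resistant libraries lay above the parental ones for HOXA, HOXB and HOXD and below them for HOXC. These are ratios of 1.51, 1.28, 0.900 and 3.23, and the HOXC ratio lies closest to 1, at -0.15 on the log2 scale, or -0.06 with library sizes alone in place of TMM factors. In the authors' length-scaled values (FPKM) the HOXC sums overlapped, at 14.7, 13.5 and 15.6 in parental and 14.3, 14.4 and 13.3 in resistant libraries.

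HOXA9, a regulator of haematopoietic and posterior identity, was the most abundant HOX transcript per length. In the authors' FPKM, which scale reads to gene length and library size, it had 82.6 ± 2.99 in parental and 144 ± 6.93 in resistant libraries (SD, n = 3). That was 33.0% to 35.1% of the summed HOX FPKM in parental libraries and 40.3% to 42.6% in the resistant ones. HOXB7, HOXB8 and HOXB6 followed in parental libraries at 24.1 ± 1.68, 19.5 ± 1.11 and 17.9 ± 0.623 FPKM. In the resistant libraries HOXB7 at 26.0 ± 2.02 FPKM and HOXB6 at 24.9 ± 1.51 FPKM did not differ beyond their spread, and HOXB3 came next at 20.7 ± 0.621 FPKM. HOXD8 stood at rank 20 of the HOX genes in parental and at rank 11 in resistant libraries.

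**Figure D1:**
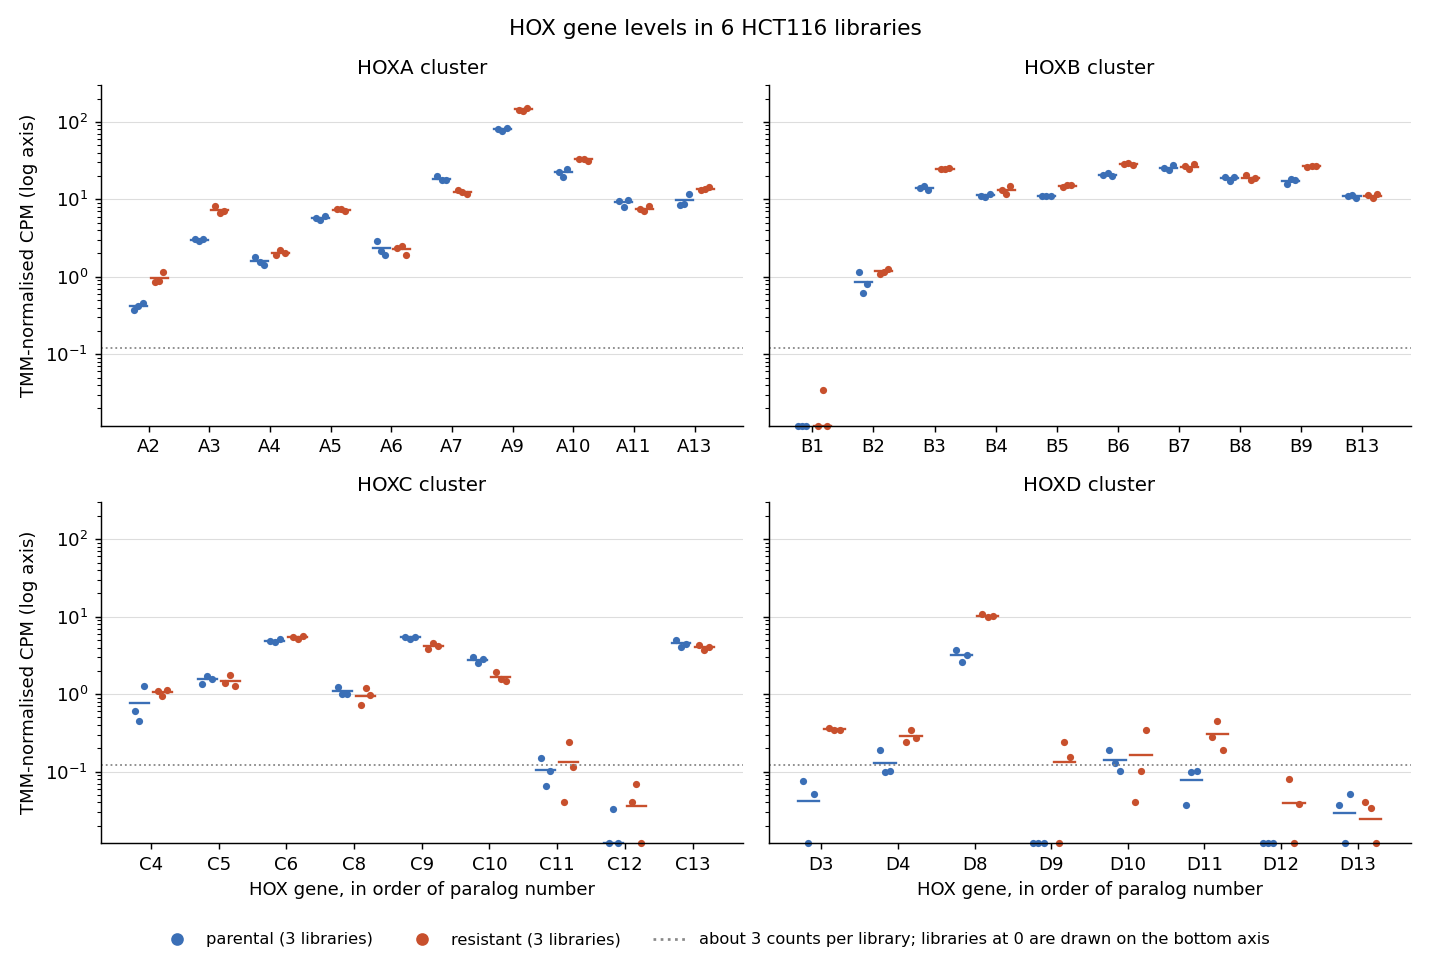
TMM-normalised CPM of HOX genes on a log axis, in order of paralog number within each cluster. Points are libraries, short lines are group means, and the dotted line marks about 3 counts per library. HOXA9 lies highest in both forms, and all HOXD genes other than HOXD8 lie below 0.5 CPM.

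Of the 38 genes, 10 were silent in both forms, with fewer than 30 counts summed over the 3 libraries of each form. They were HOXB1, HOXC11, HOXC12, HOXD3, HOXD4, HOXD9, HOXD10, HOXD11, HOXD12 and HOXD13, so that 7 of 8 HOXD genes and none of the 11 HOXA genes were silent. HOXD3 lay just inside the limit, with 28 counts in the resistant form, and HOXA2 just outside it, with 32 in parental and 77 in the resistant form. With fewer than 10 counts per form as the limit 4 genes were silent, HOXB1, HOXC12, HOXD12 and HOXD13. These 10 genes were also those removed by the low count filter of the test, and the remaining 28 were tested.

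Over all 16605 genes that entered edgeR's quasi-likelihood fit, a Benjamini-Hochberg adjusted p under 0.05 was reached by 53.8%, made up of 27.3% with more reads in resistant cells and 26.5% with fewer. With library sizes alone these calls were split 5933 to 3146 in place of 4534 to 4399. Among the 28 tested HOX genes 16 passed (57.1%), a share near this background. By direction, 13 were higher (46.4%), 3 were lower (10.7%) and 12 did not pass. The median log2 fold change was 0.36 over the tested HOX genes and 0.02 over all tested genes. At least 2-fold higher were 3 HOX genes (HOXA2, HOXA3 and HOXD8; 10.7% against 5.58% of all tested genes), and none was at least 2-fold lower (2.57% of all tested genes). The tested members are those with enough reads, so these shares describe 28 and not 38 genes. HOXA2 would not have passed the low count filter on its parental libraries alone. Its rise is therefore no support for these higher shares, nor for those of its cluster and paralog group below.

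**Figure D2:**
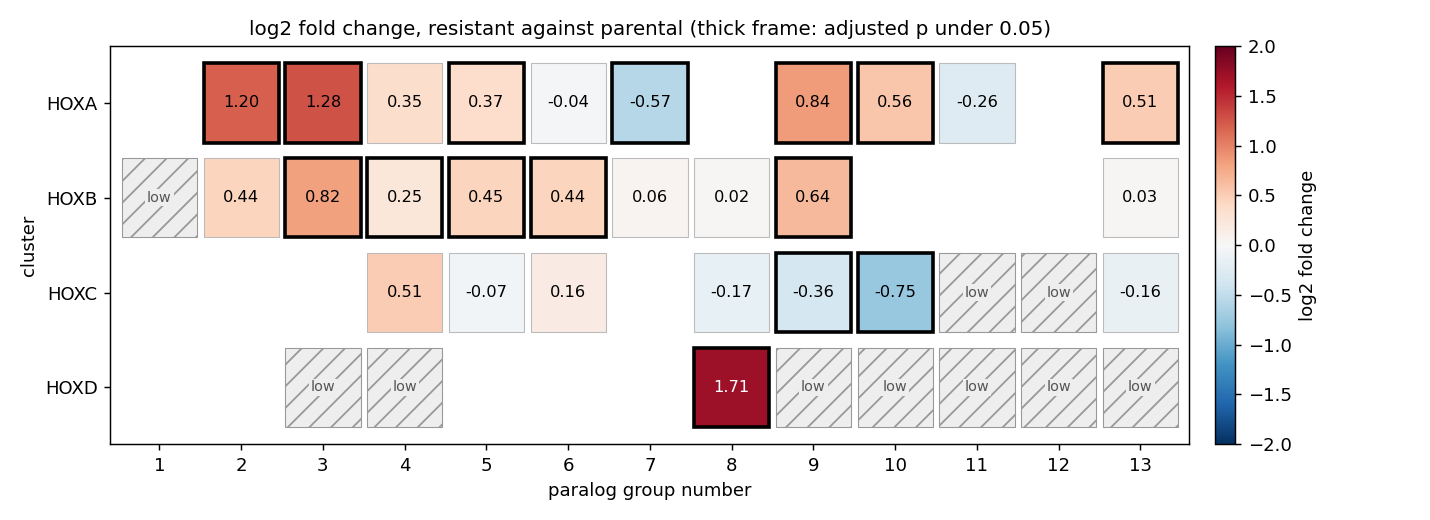
Log2 fold change of each HOX gene, resistant against parental, by cluster (rows) and paralog group number (columns). Thick frames mark an edgeR adjusted p under 0.05, hatched fields marked low are the 10 silent genes, and empty fields are not shown. The called rises lie in HOXA, HOXB and at HOXD8, and the 3 called falls are HOXA7, HOXC9 and HOXC10.

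In the HOXA cluster 7 of 11 genes rose (63.6%, beside 27.3% of all tested genes), HOXA7 fell and 3 did not pass. At the 3′ end HOXA3, a regulator of pharyngeal and neck structures, had 3.08, 2.89 and 3.05 CPM in parental and 8.20, 6.57 and 7.17 CPM in resistant libraries. Its counts were 82, 89 and 60 against 204, 192 and 186, and the groups did not overlap. The HOXA3 log2 fold change was 1.28 ± 0.12 (SE; 2.43-fold; edgeR adjusted p = 4.8e-06). HOXA2, a hindbrain and second-arch patterning gene, rose 2.30-fold from a low level, with 10, 13 and 9 counts in parental and 21, 26 and 30 in resistant libraries (edgeR adjusted p = 0.0027). Because of the low count filter its rise is no support for the 63.6%. HOXA5, known in lung and gut development, rose 1.29-fold, from 5.72 ± 0.307 to 7.36 ± 0.303 CPM (edgeR adjusted p = 0.0077). HOXA4 had 1.60 ± 0.192 CPM in parental and 2.04 ± 0.150 CPM in resistant libraries and did not pass (edgeR adjusted p = 0.11), although each resistant library lay above each parental one. With library sizes alone HOXA4 passed (edgeR adjusted p = 0.048, the lowest of its alternatives, which reached 0.52).

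A single HOXA gene fell. HOXA7, which is near HOXA9 and is active with it in early blood progenitors, had 19.8, 17.6 and 17.9 CPM in parental and 13.2, 12.3 and 11.7 CPM in resistant libraries. All resistant libraries lay below all parental ones, by 1.49-fold (log2 fold change -0.57 ± 0.08 SE, edgeR adjusted p = 5.7e-05). HOXA6, its neighbour on the 3′ side, had 2.32 ± 0.504 CPM in parental and 2.28 ± 0.313 CPM in resistant libraries and overlapped between the forms.

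On the 5′ side of HOXA7, HOXA9, HOXA10 and HOXA13 rose and HOXA11 did not pass. HOXA9 had 82.1, 77.4 and 82.3 CPM in parental and 143, 140 and 151 CPM in resistant libraries. Its log2 fold change was 0.84 ± 0.05 (SE; 1.80-fold; edgeR adjusted p = 5.8e-08), and the 3 resistant libraries lay far above the parental range. The ratio of HOXA9 to HOXA7 counts within a library, which no scaling between libraries touches, was 4.15, 4.40 and 4.60 in parental and 10.8, 11.4 and 13 in resistant libraries. HOXA10, a regulator of posterior and uterine identity, rose 1.47-fold, from 22.3 ± 2.64 to 32.7 ± 0.904 CPM (edgeR adjusted p = 9.2e-05). HOXA13, the most 5′ gene of the cluster, which acts in hindgut and distal limb, had 8.57, 8.71 and 11.7 CPM in parental and 13.1, 13.4 and 14.3 CPM in resistant libraries (1.42-fold, edgeR adjusted p = 0.0024). HOXA11, a limb and uterus regulator, had 9.16 ± 1.10 against 7.61 ± 0.473 CPM and did not pass (log2 fold change -0.26 ± 0.11 SE, edgeR adjusted p = 0.060). Without parental replicate 2, which had the lowest parental level, the HOXA11 log2 fold change was -0.36 with an edgeR adjusted p of 0.0062, the lowest of its alternatives, which reached 0.47.

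In the HOXB cluster 5 of 9 tested genes rose (55.6%, beside 27.3% of all tested genes) and none fell. HOXB3, a hindbrain and haematopoietic gene, had 14, 15 and 13.2 CPM in parental and 24.9, 24.4 and 25.4 CPM in resistant libraries. The groups did not overlap, and the rise was 1.76-fold (log2 fold change 0.82 ± 0.06 SE, edgeR adjusted p = 8.4e-07). HOXB9, a thoracic patterning gene, had 15.9, 18.0 and 17.6 CPM in parental and 26.4, 27.2 and 26.9 CPM in resistant libraries (1.56-fold, edgeR adjusted p = 5.7e-06). Its ratio to the neighbouring HOXB8 within a library was 0.812 to 1.05 in parental and 1.28 to 1.54 in resistant libraries. HOXB5 rose 1.37-fold, from 11 ± 0.0934 to 15.1 ± 0.526 CPM, and HOXB6 rose 1.36-fold, from 20.9 ± 0.839 to 28.5 ± 0.885 CPM (edgeR adjusted p = 1.7e-04 and 6.0e-05). HOXB5 takes part in enteric neuron and lung development, and HOXB6 is active in the lateral mesoderm and in erythroid cells.

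HOXB4, known for the expansion of haematopoietic stem cells, passed the threshold narrowly and its groups touched. It had 11.1, 10.8 and 11.8 CPM in parental and 13.2, 11.8 and 14.9 CPM in resistant libraries (1.19-fold, edgeR adjusted p = 0.040). The call was lost in 8 of 15 alternatives, among them without parental replicate 1 or 2 and without resistant replicate 1 or 3, with adjusted p-values between 0.0097 and 0.20 over all of them. HOXB7 had 25.5 ± 1.86 against 26.4 ± 1.97 CPM, HOXB8 had 18.8 ± 1.36 against 19.0 ± 1.52 CPM, and HOXB13 had 10.9 ± 0.385 against 11.2 ± 0.730 CPM. HOXB13, the most 5′ gene of the cluster, marks hindgut and prostate. Each of these 3 overlapped between the forms, with edgeR adjusted p-values of 0.55 to 0.86. HOXB2, a hindbrain gene, had 0.866 ± 0.277 CPM in parental and 1.17 ± 0.0939 CPM in resistant libraries (edgeR adjusted p = 0.17), and HOXB1 had a single count, in resistant replicate 2.

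The HOXC genes were expressed at a lower level, and 2 of 7 tested genes fell while none rose. The share that fell, 28.6%, was near the 26.5% of all tested genes. HOXC10, a lumbar and hindlimb patterning gene, had 80, 78 and 56 counts in parental and 48, 46 and 38 in resistant libraries, or 3.01, 2.54 and 2.85 against 1.93, 1.57 and 1.46 CPM. The groups did not overlap, and the fall was 1.69-fold (log2 fold change -0.75 ± 0.17 SE, edgeR adjusted p = 0.0028). In the authors' FPKM HOXC10 had 2.95, 1.67 and 2.89 in parental and 2.81, 2.48 and 1.30 in resistant libraries, so the groups overlapped there and limma gave a log2 fold change of -0.14 to -0.21 with adjusted p-values of 0.70 to 0.73 (range over all alternatives 6.1e-04 to 0.73). HOXC9, a thoracic and motor neuron patterning gene, had 5.52, 5.20 and 5.55 CPM in parental and 3.86, 4.62 and 4.2 CPM in resistant libraries (1.28-fold lower, edgeR adjusted p = 0.024). That call was lost in 9 of 15 alternatives, among them without parental replicate 1 or 3 and without resistant replicate 1 or 3, with adjusted p-values between 0.020 and 0.16.

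The other tested HOXC genes did not pass. HOXC6, a thoracic gene that is also active in mammary tissue, had 4.88 ± 0.238 against 5.44 ± 0.234 CPM. HOXC13, a regulator of hair and nail keratin genes, had 4.51 ± 0.433 against 4.05 ± 0.311 CPM. HOXC4, HOXC5 and HOXC8 had 0.776 to 1.55 CPM in parental and 0.961 to 1.47 CPM in resistant libraries on average. For HOXC4 the parental libraries were 0.601, 0.455 and 1.27 CPM, and without parental replicate 3 its log2 fold change went from 0.51 to 0.99 with an edgeR adjusted p of 0.016 (range over its alternatives 0.016 to 0.61). HOXC4, HOXC5 and HOXC6 share a promoter region and exons, so the split of reads among them is uncertain.

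HOXD8 was the one HOXD gene above the silent limit and had the largest fold change of the tested HOX genes. It had 100, 80 and 63 counts in parental and 271, 292 and 265 in resistant libraries. These correspond to 3.76, 2.60 and 3.21 CPM against 10.9, 9.99 and 10.2 CPM, and the groups were clearly apart. The log2 fold change of HOXD8, a trunk patterning gene of the middle of its cluster, was 1.71 ± 0.13 (SE; 3.26-fold; edgeR adjusted p = 5.8e-07).

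Among the silent HOXD genes reads were few, and HOXD3, HOXD4, HOXD9 and HOXD11 had more of them in the resistant form. HOXD3 had 2, 0 and 1 counts in parental and 9, 10 and 9 in resistant libraries, a ratio of 8.98 after scaling with a 95% counting interval of 2.77 to 46.1. HOXD11 had 1, 3 and 2 against 7, 13 and 5 counts, a ratio of 4.01 with an interval of 1.60 to 11.9. HOXD9 had no count in parental libraries and 0, 7 and 4 in the resistant ones; the counting interval of their ratio had a lower limit of 2.41. HOXD4 had 10 counts in all in parental and 23 in the resistant form, a ratio of 2.21 with an interval of 1.01 to 5.21. HOXD10 had 11 against 13 counts, HOXD12 had 0 against 3 and HOXD13 had 2 against 2. In the HOXC cluster HOXC11 had 8 against 11 counts and HOXC12 had 1 against 3. The intervals cover counting error only, and all of these levels were below 0.5 CPM. With no filter on low counts edgeR called HOXD3, HOXD9 and HOXD11 higher, with adjusted p-values of 2.7e-04, 0.0060 and 0.015, and none of the other 7 silent genes.

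Ordered by paralog group across clusters, 5 of 8 tested genes of groups 1 to 4 rose and none fell. In groups 5 to 8, 4 of 11 tested genes rose (HOXA5, HOXB5, HOXB6 and HOXD8) and HOXA7 fell. In groups 9 to 13, 4 of 9 rose (HOXA9, HOXA10, HOXA13 and HOXB9) and 2 fell (HOXC9 and HOXC10). The median log2 fold changes were 0.51, 0.06 and 0.03. The shares called in either direction were 62.5%, 45.5% and 66.7%, on both sides of the 53.8% of all tested genes. Called higher were 62.5%, 36.4% and 44.4%, beside 27.3% of all tested genes. The 62.5% includes HOXA2, which passed the low count filter only with its resistant libraries. Paralogs of one group, which encode the most similar proteins, did not move alike. HOXA9 and HOXB9 rose while HOXC9 fell, and HOXA10 rose while HOXC10 fell. The HOXC9 call was lost in 9 of 15 alternatives and the HOXC10 call in 3, and neither was called on the authors' FPKM. In group 3 both tested members, HOXA3 and HOXB3, rose. Differences between clusters or groups of paralogs were not tested, because genes are not replicates of a condition.

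Of 17 non-coding RNAs of the clusters with a row, 9 were tested, 6 rose, none fell and 3 did not pass. The share that rose was 66.7%, beside 27.3% of all tested genes, and 2 of the 6 calls, HOXA-AS3 and HOXB-AS3, were lost in 8 and 7 of 15 alternatives. HOXA-AS2, transcribed between HOXA3 and HOXA4, had 18, 10 and 15 counts in parental and 62, 99 and 91 in resistant libraries. Its rise was 5.50-fold (log2 fold change 2.46 ± 0.27 SE, edgeR adjusted p = 1.4e-05), beside a 2.43-fold rise of HOXA3. HOXA-AS2 would not have passed the low count filter on its parental libraries alone, so its rise is no support for the 66.7%. HOTAIRM1, a retinoic acid-responsive RNA from the 3′ end of the HOXA cluster, had 2.22, 1.92 and 2.24 CPM in parental and 5.54, 4.75 and 5.67 CPM in resistant libraries (2.51-fold, edgeR adjusted p = 9.1e-06). HOXD-AS2, an antisense RNA of the HOXD cluster, had 13, 14 and 12 counts against 58, 73 and 76 and rose 5.04-fold (edgeR adjusted p = 2.8e-06), beside HOXD8. Each of these 3 RNAs had no overlap between the forms.

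Further 5′ in the HOXA cluster the antisense RNAs differed less. HOXA10-AS rose 1.22-fold, from 11.1 ± 0.963 to 13.6 ± 0.513 CPM (edgeR adjusted p = 0.011). HOXA-AS3, which overlaps the HOXA5 to HOXA7 region, rose 1.37-fold with an edgeR adjusted p of 0.039, and the call was lost in 8 of 15 alternatives (0.016 to 0.16), among them without parental replicate 1 and without resistant replicate 1 or 2. HOXA11-AS did not pass (edgeR adjusted p = 0.10). HOXB-AS3 rose 1.51-fold on counts (edgeR adjusted p = 0.015) but had a log2 fold change of -0.02 on the authors' FPKM, with adjusted p-values of 0.97 and 0.98 (range over its alternatives 0.0072 to 0.98). The HOXB-AS3 call was also lost with DESeq2, without parental replicate 2 and without resistant replicate 2 or 3. HOTAIR, the HOXC RNA known to bind Polycomb complexes, had 21 counts in parental and 25 in the resistant form. HOTTIP, at the 5′ end of HOXA, had 17 against 22. In other clusters HOXC-AS1 and HOXC-AS2 did not pass (edgeR adjusted p = 0.98 and 0.85), and HOXB-AS1 had 20 against 22 counts. HAGLR, of the HOXD cluster, had 16 against 10, the only untested RNA of the list with fewer counts in the resistant form. Whether counting used strand is not given in the sources used here, so reads of a HOX gene and of an antisense partner that overlaps it cannot be told apart.

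Genes that flank the clusters were set beside them. Of 19 tested flanking genes 10 were called (52.6%), a share near the 53.8% of all tested genes. By direction 36.8% were higher and 15.8% lower, beside 27.3% and 26.5% of all tested genes. Near HOXA 1 of 3 tested genes rose and none fell. At the HOXA cluster SKAP2, an adaptor protein gene on the 3′ side, had 45.8 ± 2.91 against 45.6 ± 2.34 CPM, and HIBADH, a valine catabolism gene on the 5′ side, rose 1.18-fold (edgeR adjusted p = 0.0014). Of 5 tested genes near HOXB, TTLL6, a tubulin-modifying enzyme gene, was the one that passed, 1.4-fold higher with an edgeR adjusted p of 0.036 that was lost in 9 of 15 alternatives (0.015 to 0.48), among them without parental replicate 1 or 3 and without resistant replicate 1 or 2. Near HOXC 1 of 6 tested genes rose and 2 fell, among them HNRNPA1, an RNA-binding protein gene, which fell from 1739 ± 108 to 1163 ± 33.6 CPM.

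At the HOXD cluster 4 of 5 tested flanking genes rose and 1 fell (80% and 20%, beside 27.3% and 26.5% of all tested genes). LNPK, a gene of endoplasmic reticulum shape on the 5′ side of the cluster, had 43.9, 38.8 and 44.8 CPM in parental and 168, 152 and 179 CPM in resistant libraries, a 3.92-fold rise (edgeR adjusted p = 2.4e-09). On the 3′ side the mitochondrial import gene MTX2 rose 1.86-fold, from 37.1 ± 2.85 to 69.0 ± 1.55 CPM. HNRNPA3, an RNA-binding protein gene further on that side, rose 1.94-fold, from 683 ± 29.9 to 1328 ± 38.4 CPM. Beyond LNPK the transcription factor gene ATF2 rose 1.34-fold and ATP5MC3, an ATP synthase subunit gene, fell 1.14-fold, a call lost with library sizes alone and on FPKM. HOXD8 and HOXD-AS2 thus lay between LNPK and MTX2, which were also higher in the resistant cells. Inside the cluster the other members had few reads, and none of the silent HOXD genes had fewer in the resistant form. HOXD3, HOXD4, HOXD9 and HOXD11 had more there. HOXD10 had 11 counts in parental and 13 in the resistant form, HOXD12 had 0 and 3, and HOXD13 had 2 and 2. The non-coding RNA HAGLR had 16 and 10. The part of the wider region in the HOXD values was not tested.

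**Figure D3:**
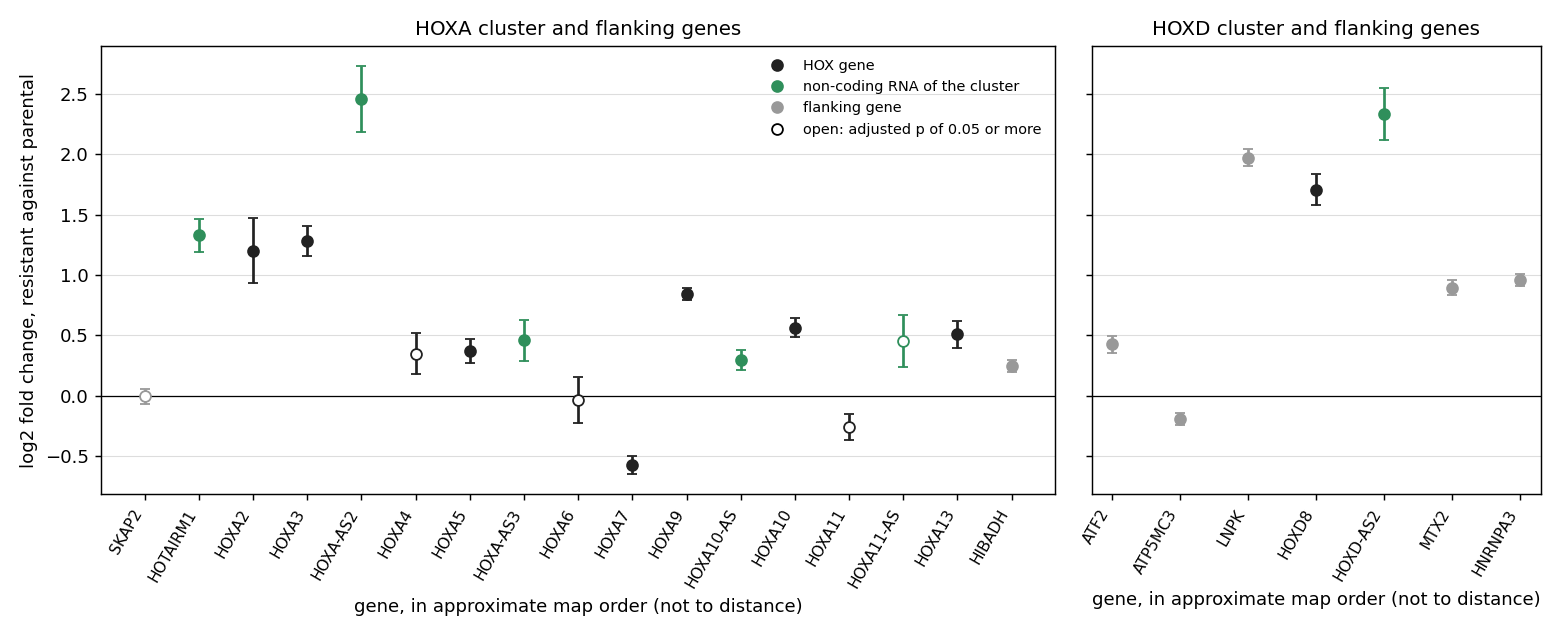
Log2 fold change with its SE for HOX genes (black), non-coding RNAs (green) and flanking genes (grey) of the HOXA and HOXD clusters, in approximate map order and not to distance; filled points passed the edgeR threshold. In HOXA the non-coding RNAs HOTAIRM1 and HOXA-AS2 stand with HOXA2 and HOXA3 above 1, whereas at HOXD the flanking genes LNPK, MTX2 and HNRNPA3 are higher together with HOXD8.

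The TALE cofactor genes reported here moved in both directions. MEIS2 rose 1.55-fold, from 7.18, 6.14 and 6.11 CPM to 10.6, 9.44 and 10.1 CPM, and MEIS3 fell 1.54-fold, from 22.5 ± 0.380 to 14.6 ± 1.18 CPM (edgeR adjusted p = 2.4e-04 and 1.5e-05). PBX2 fell from 75.8 ± 2.07 to 56.8 ± 4.77 CPM. The corepressor gene TGIF1 rose 1.31-fold and its relative TGIF2 fell 1.18-fold, and neither passed on FPKM. PBX3, PBX4 and PKNOX1 did not pass, with edgeR adjusted p-values of 0.21 to 0.79, and MEIS1 was not analysed here.

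**Figure D4:**
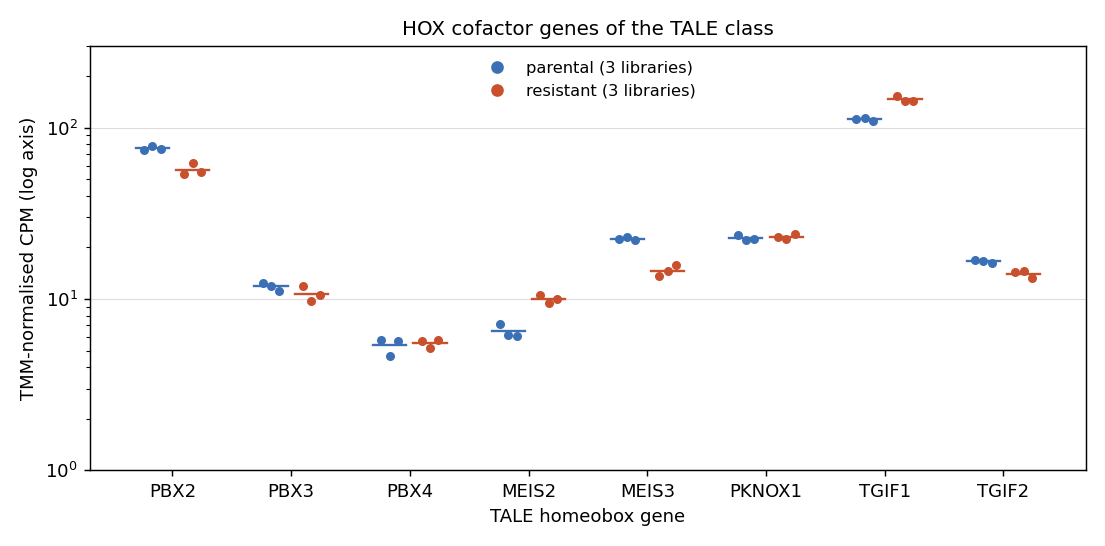
TMM-normalised CPM of TALE cofactor genes on a log axis, with points for libraries and lines for group means. MEIS3 and PBX2 lie lower and MEIS2 higher in all resistant libraries, whereas PKNOX1 overlaps between the forms.

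Genes of the complexes that silence or maintain HOX clusters moved in both directions. Of 12 tested genes of Polycomb complex PRC2, 3 rose, 2 fell and 7 did not pass, and over the alternatives 2 to 5 rose and 1 or 2 fell, the 5 with library sizes alone and 1 fall among others without parental replicate 1 or 3 or resistant replicate 1 or 2. EZH2, its methyltransferase, had 124 ± 1.26 CPM in parental and 124 ± 3.65 CPM in resistant libraries. PHF19, a Polycomb-like subunit that guides PRC2 to chromatin, fell 1.92-fold, from 71.1, 66.6 and 62.9 CPM to 35.0, 37.3 and 31.9 CPM (edgeR adjusted p = 3.5e-07). JARID2, another accessory subunit, rose 1.33-fold. In the PRC1 list 3 of 12 rose, 1 fell and 8 did not pass, with CBX2 1.28-fold lower. With library sizes alone 7 PRC1 genes were higher, and without parental replicate 2 or 3, 2 PRC1 genes were lower. In the trithorax and H3K27 demethylase list 3 of 13 rose, 5 fell and 5 did not pass. With library sizes alone 5 rose and 1 fell, and on FPKM 1 rose and 1 fell. Without resistant replicate 2, 1 rose and 3 fell. KMT2B, an H3K4 methyltransferase, fell 1.47-fold, and KDM6B, which removes the Polycomb mark, rose 1.4-fold (edgeR adjusted p = 3.4e-05 and 2.6e-05). Read against the 53.8% of all tested genes, the shares called were 41.7%, 33.3% and 61.5%, and the median log2 fold changes were 0.05, 0.10 and -0.12.

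Retinoic acid genes were called more in the higher direction, with 7 of 12 tested members rising, 2 falling and 3 not called, and a median log2 fold change of 0.41. These shares are 58.3% and 16.7%, beside 27.3% and 26.5% of all tested genes. CYP26A1 and STRA6 had few parental counts and passed the low count filter through their resistant libraries, so only a rise could be called. Their rises are therefore no support for the higher share, and 3 listed genes with few counts in both forms were not tested. DHRS3, a retinaldehyde reductase gene, rose 4.52-fold, from 7.78, 7.84 and 7.13 CPM to 34.5, 34.4 and 34.4 CPM (edgeR adjusted p = 1.6e-10). ALDH1A3, an enzyme that makes retinoic acid, rose 1.75-fold, from 489 ± 10.5 to 858 ± 1.20 CPM, and CRABP2, which carries retinoic acid to the nucleus, rose 1.60-fold. CYP26A1, which degrades retinoic acid and is one of its targets, rose 4.23-fold on 3, 6 and 5 counts against 15, 20 and 28. STRA6, a retinol transporter gene, had 1, 0 and 6 counts against 18, 11 and 15 (edgeR adjusted p = 0.014), and its call was lost in 5 of 14 alternatives (2.9e-05 to 0.16), among them without parental or resistant replicate 1. The receptor gene RARG fell 1.30-fold and RXRB 1.28-fold, the latter not called on FPKM, and RARB had 4 counts in each form.

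Among other homeobox genes related or linked to the HOX genes, 2 of 3 tested members rose, none fell and 1 did not pass. The share that rose was 66.7%, beside 27.3% of all tested genes. CDX2, the intestinal regulator that binds HOX clusters, had 11 ± 1.19 CPM in parental and 10.3 ± 0.857 CPM in resistant libraries and did not pass (edgeR adjusted p = 0.54). MNX1 rose 1.97-fold, from 6.09 ± 1.10 to 11.9 ± 0.362 CPM, and PDX1, a pancreas and duodenum regulator, rose 1.67-fold, from 1.44 ± 0.216 to 2.42 ± 0.389 CPM (edgeR adjusted p = 3.1e-05 and 0.0061). EVX1 and EVX2, which lie next to HOXA13 and HOXD13, had 7 and 0 counts in parental and 13 and 3 in the resistant form.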

How the data were processed

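RNA was sequenced from 3 parental and 3 resistant HCT116 libraries prepared, per the labels' protocols, with the SMARTER mRNA-Seq kit. The authors deposited a table of raw read counts, one row a gene. The sources used here give no aligner, counting program or strandedness. A second table deposited by the authors names no unit, and its values were taken as FPKM. It served for levels between genes and for alternatives. The submitters' processing notes name mouse builds, but 30616 of 31456 rows have human Ensembl identifiers. No mouse reference was used, so no coordinates or sequences are given. Another 840 rows are gene models without a symbol.

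Counts were fitted over all genes with edgeR 4.0.16 in R 4.3.3 (filterByExpr, TMM, robust glmQLFit, two-sided glmQLFTest, Benjamini-Hochberg adjustment, threshold 0.05). The SE is the log2 fold change divided by the square root of F. The code was checked on simulated counts. Ratios of genes with few counts have exact conditional binomial 95% intervals. With 3 against 3 libraries no permutation test of 1 gene can give a p below 0.10. Alternatives used DESeq2 1.42.0 and limma 3.58.1.

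Members and lists were chosen with earlier results of these data known. Counts and medians cover all members of a list, but results for some single genes are not reported here. Named from each list were called genes whose log2 fold change exceeded 0.58 in size, up to 6, and genes with a described role in HOX control; other list genes named were chosen after their values were seen. List symbols without a row were not analysed.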

Additional observations from a re-analysis of the deposited data

How the results depend on the processing

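Over the 15 alternatives 16 of the 28 tested HOX genes kept both their direction and their side of the threshold wherever they were tested. Among these, HOXA2 and HOXC8 had 14 alternatives, since neither was tested with at least 1 CPM in 3 libraries. Of 418 values 376 were kept, 21 lost a call, 7 gained one and 14 changed sign. The count of higher HOX genes was 12 to 16. The count of lower ones was 1 on the authors' FPKM with limma at each pseudocount and filter, 4 with RLE factors, and 2 to 4 with 1 library left out. With fewer than 10 counts per form as the limit 4 genes were silent. With library sizes alone the median log2 fold change of all genes went from 0.02 to 0.11, 5933 genes were called higher and 3146 lower against 4534 and 4399, and the summed log2 ratios were 0.68 for HOXA, 0.44 for HOXB and -0.059 for HOXC; the shift in scale is built into that alternative.

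Sign changes concerned uncalled genes and HOXB-AS3, as log2 fold changes. HOXA6 had 0.057 with library sizes alone and -0.146 to 0.143 with 1 library left out. HOXB8 had -0.001 without a filter and -0.046 to 0.071 with 1 library left out, and HOXB13 then had -0.012 to 0.083. HOXC5 had 0.024 with library sizes alone, 0 and 0.001 on FPKM, and -0.214 to 0.024 with 1 library left out. EZH2 had 0.094 with library sizes alone, 0.008 with at least 1 CPM in 3 libraries, 0.036 on FPKM, and -0.023 to 0.021 with 1 library left out. HOXB-AS3 had -0.017 and -0.020 on FPKM. The cause was not tested.

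Same-numbered libraries correlated in their deviations from group means at 0.09, 0.21 and 0.05, and not every library correlated best with its own number, so the numbers were not taken as a pairing. With the replicate block 13 HOX genes were higher and 4 lower, the added one being HOXA11, 5 PRC1 genes were higher and 3 lower, and all genes gave 5010 and 4963 calls. Depth limits the 10 silent genes, which had 0 to 13 counts in a library.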
